A study of Mus musculus with 15 samples.

Results

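The genes described here are 40 named regulators of actin filaments: the actins themselves, the proteins that bind, cap, sever, branch, elongate, coat and crosslink filaments, and the nonmuscle myosins and membrane linkers that work on them. They were taken from a list of gene symbols, and each gene was read from the probe set with its symbol that had the highest mean. Of the 40, 37 were measured among 19938 genes in all, and 34 passed the filter on low values, among 10069 genes tested.

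The tissue was the choroid plexus of the fourth ventricle, the vascular fold whose epithelium secretes cerebrospinal fluid, and each mouse gave 1 Affymetrix whole-transcript array. There were 5 null mice with 0 wild-type alleles of Add1, 5 heterozygous mice with 1 and 5 wild-type mice with 2. All 15 were C57BL/6J mice labelled male and 3 weeks old, an age chosen to precede hydrocephalus. The deleted part of Add1, and whether other alleles were carried, were not stated in what was used here.

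Add1 encodes alpha-adducin, which caps the fast-growing (barbed) end of actin filaments and binds spectrin to them under the plasma membrane. Filaments grow mostly at barbed ends, where capping proteins stop growth and formins and Ena/VASP proteins sustain it. The Arp2/3 complex starts new filaments as branches, cofilins and gelsolins take filaments apart, and tropomyosins, crosslinkers and myosin II set which filaments are bundled and contract. In choroid plexus epithelium, filaments fill the apical microvilli and a belt at the cell junctions.

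Add1 itself read 7.66, 7.74, 7.76, 7.46 and 7.41 in null arrays, 7.68, 7.68, 7.74, 7.92 and 7.79 in heterozygous arrays, and 7.96, 8.04, 7.78, 7.81 and 8.0 in wild-type arrays, on the log2 scale of the deposited values. The null arrays all lay below the wild-type arrays, and the null mean was 0.31 lower (SE 0.0791, limma adjusted p = 0.0240). Add1 no longer passed when null array 4 (p 0.0510 after adjustment), wild-type array 1 (0.0636), wild-type array 2 (0.0680) or null arrays 1 and 5 together (0.101) were left out of the limma fit. The probes may lie outside the deleted part, so a level well above background in null arrays checks little about the labels. Null arrays 1 and 5 went against their sex label: Xist read 9.09 and 9.69 in them and 3.11 to 3.88 in the other 13, while 3 Y-linked genes read at most 4.27 in them and at least 6.92 in the others. Results that rest on these arrays are therefore also given without them. Markers of choroid plexus epithelium matched the tissue label, with a mean over 9 genes of 11.24 to 11.31 in null, 11.22 to 11.35 in heterozygous and 11.25 to 11.35 in wild-type arrays. Heterozygous array 1 stood apart, with a neuron marker mean of 6.67 against 5.12 to 5.32 in the other heterozygous arrays. Its oligodendrocyte marker mean was 7.04 against 6.01 to 6.06 in them, and its astrocyte marker mean 7.32 against 6.07 to 6.32. This is bulk tissue, so fewer cells of a type and less RNA per cell cannot be told apart.

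In null against wild-type choroid plexus, 1 of the 34 tested regulators passed the test at an adjusted p under 0.05 in limma (2.94%), and it was higher: Capg. Over all 10069 genes 778 passed, which is 7.73%, with 4.17% of genes higher and 3.56% lower. At an unadjusted p under 0.05, 7 of 34 members passed (20.6%), 5 higher and 2 lower, against 24.0% of all genes. The median difference was 0.012 in the members and 0.012 in all genes, and the median size of the difference was 0.087 in the members and 0.09 in all genes. Differences of 18 members were above 0 and of 15 below it.

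How small the remaining differences could be was read from their 95% intervals. For 24 of 34 members (70.6%) the interval lay within 0.3 of 0, a 1.23-fold change in either direction, against 64.2% of all genes. For 33 members (97.1%) it lay within 0.5, a 1.41-fold change, against 91.6%, and the exception was Capg. The 10 members whose interval reached past 0.3 were Dstn, Capg, Arpc1a, Arpc1b, Arpc5, Coro1c, Actn1, Myh9, Myh10 and Myh14. The median residual SD was 0.102 in the members, with Capzb at 0.0581 and Actn1 at 0.235 as its ends, and 0.122 in all genes.

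**Figure D1:**
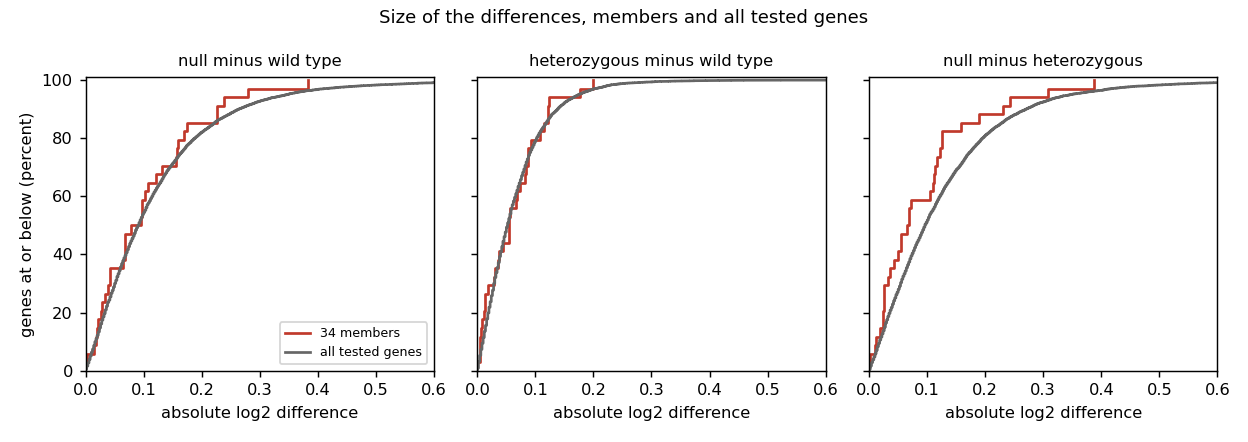
Cumulative share of genes (percent) against the absolute log2 difference, for the 34 members and for all 10069 genes tested, in a panel for each comparison of genotypes. In null against wild type the medians are 0.087 for members and 0.09 for all genes.

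**Figure D2:**
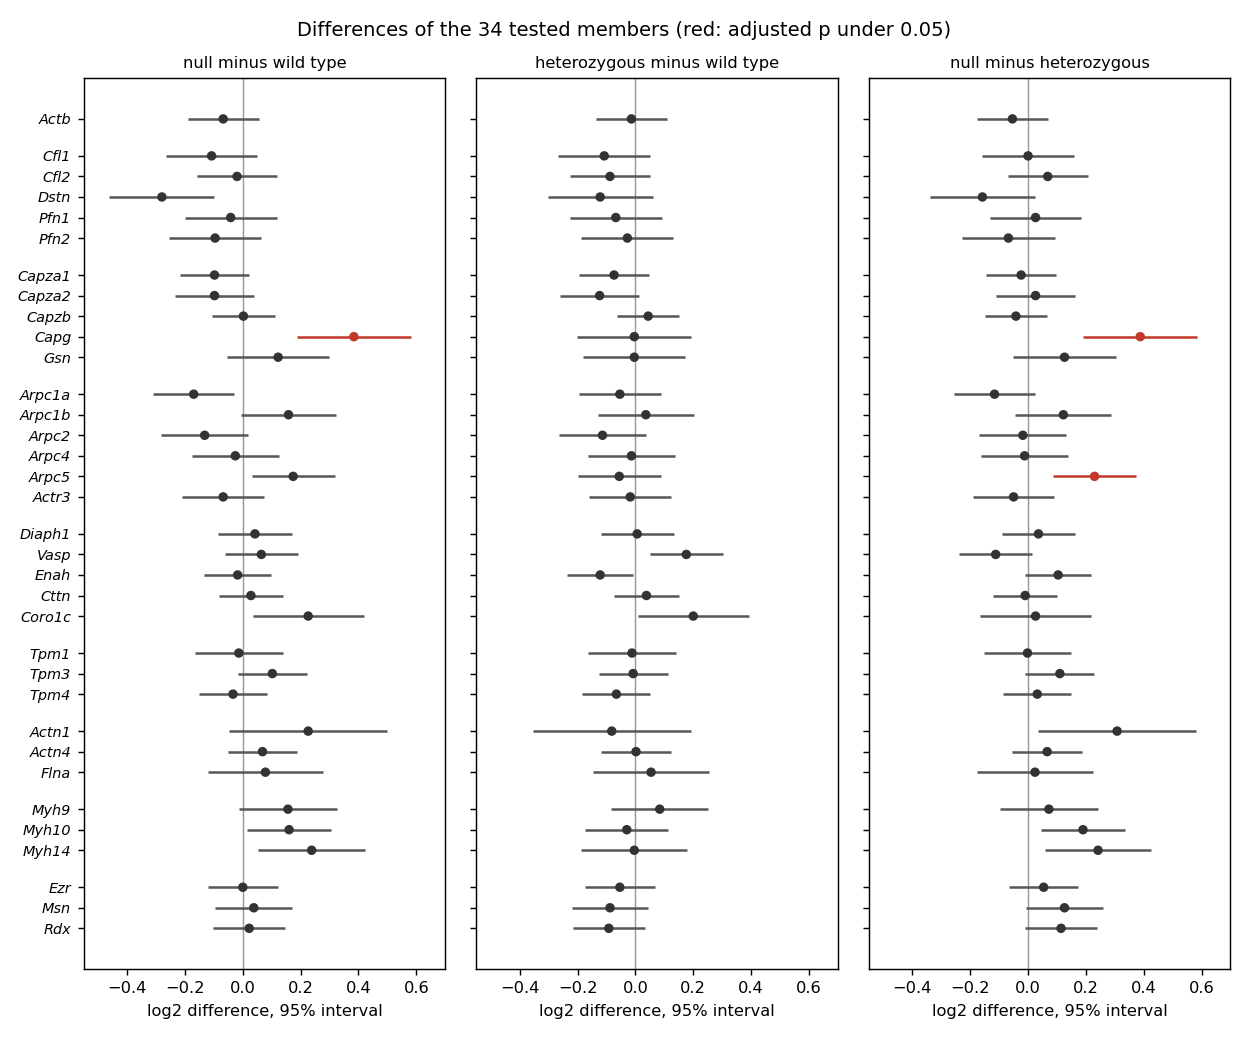
Log2 difference of each tested member with its 95% interval, in a panel for each comparison, members ordered by role and those with an adjusted p under 0.05 in red. Capg stands to the right of 0 in both comparisons of null arrays, while the intervals of most other members cross 0.

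In heterozygous against wild-type arrays 0 of 34 members passed in limma, as did 0% of all genes. At an unadjusted p under 0.05, 3 members passed (Vasp, Enah and Coro1c), or 8.82%, against 3.78% of all genes. The largest difference of any member was 0.20, in Coro1c. Differences of 9 members were above 0 and of 25 below it, against 5116 above and 4863 below over all genes. The median difference was -0.023 in the members and 0.002 in all genes. The interval lay within 0.3 for 30 members (88.2%, against 82.1% of all genes) and within 0.5 for 34 (100%, against 97.6%).

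In null against heterozygous arrays 2 of 34 members passed (5.88%), Capg and Arpc5, both higher, while 7.93% of all genes passed, 4.32% higher and 3.61% lower. The arrays of these 2 members did not overlap between the genotypes, against 5.76% of all genes, and 0 members were without overlap between null and wild type, against 5.96%. In heterozygous against wild type 0 members were without overlap, against 0.804%. At an unadjusted p under 0.05, 5 members passed (14.7%) against 25.8% of all genes. The interval lay within 0.3 for 27 members (79.4%, against 61.9% of all genes) and within 0.5 for 32 (94.1%, against 91.3%). The median size of the difference was 0.067 in the members and 0.096 in all genes, so the middle member differed by less than the middle gene. Null arrays enter both comparisons with the other genotypes, and wild-type arrays enter both comparisons with wild type, so these sets of calls share arrays.

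Capg encodes a gelsolin-family protein that caps barbed ends without severing filaments and is abundant in macrophages. It read 6.14, 5.81, 5.81, 5.77 and 5.88 in null arrays, 5.57, 5.29, 5.45, 5.57 and 5.59 in heterozygous arrays, and 5.83, 5.45, 5.44, 5.31 and 5.46 in wild-type arrays. Each null array exceeded every heterozygous array, and wild-type array 1 was the only array of its genotype inside the null range. The null mean was 0.38 above wild type (SE 0.0935, 95% interval 0.19 to 0.58, limma adjusted p = 0.0193), a 1.305-fold level, and 0.39 above heterozygous (adjusted p = 0.0191). The heterozygous mean differed from wild type by -0.004, with an interval of -0.20 to 0.19. Capg lay close to the filter value of 5.33 and exceeded it in 13 of 15 arrays, where the other 33 tested members exceeded it in all 15.

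Null array 1, the highest, was also among the arrays that contradict their sex label. Without it the difference from wild type was 0.32 (adjusted p = 0.0564), and without null arrays 1 and 5 it was 0.30 (adjusted p = 0.106), in limma over all genes. With Xist as a covariate it was 0.31 (adjusted p = 0.109). Without null array 1 the difference from heterozygous was 0.32 (adjusted p = 0.0565), without heterozygous array 2 it was 0.34 (adjusted p = 0.0503), and without null arrays 1 and 5 it was 0.30 (adjusted p = 0.106). The direction held in each case and the call did not.

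The macrophage marker mean was 5.01 to 5.46 in null, 4.99 to 5.17 in heterozygous and 5.0 to 5.37 in wild-type arrays. Of its 9 measured markers 4 (Cd68, Aif1, Ptprc and Tyrobp) were below the filter value in every array, and the mean was 5.01 in null array 1, the array with the most Capg. Endothelial markers averaged 5.62 to 6.20 in null, 5.62 to 5.70 in heterozygous and 5.48 to 5.97 in wild-type arrays, and stromal markers 8.26 to 8.63, 8.08 to 8.40 and 8.03 to 8.37 in the same order of genotypes. Between null and wild type, 2 of 6 tested endothelial markers passed in limma, both higher (Cdh5 and Kdr), as did 4 of 9 stromal markers (Dcn, Pdgfra and Fbln1 higher and Ogn lower) and 0 of 4 macrophage markers. Of the epithelium markers 3 of 9 passed (Kcnj13, Aqp1 and Kcne2, 1 higher and 2 lower). Of the tested ependyma markers 2 of 4 passed (Ccdc153 and Dynlrb2, 1 higher and 1 lower). Over all genes 7.73% passed. Astrocyte markers averaged 6.14 to 7.12 in null, 6.07 to 7.32 in heterozygous and 6.06 to 6.30 in wild-type arrays, with null arrays 3 and 4 at 7.12 and 7.02. The differences of all 6 tested astrocyte markers between null and wild type were above 0, with a median of 0.52. Of these 6, 3 had an unadjusted p under 0.05 in limma (against 24.0% of all genes) and 0 were called. Pericyte and smooth muscle markers averaged 5.20 to 5.57 in null, 5.21 to 5.34 in heterozygous and 5.11 to 5.45 in wild-type arrays. Null array 1 had the 5.57 and null array 5 the 5.20. Of these 8 markers 4 were below the filter value in every array. The 3 tested differences between null and wild type were all above 0, with a median of 0.16, and 0 were called. The part of these cell types in the Capg difference, and in those of the other members, was not tested.

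To set the members' values beside their genes' start regions, the 250 bases upstream of the start are shown for the 2 called members and for Dstn, the member with the lowest difference from wild type. They are from RefSeq on GRCm38.p6, all on the plus strand: Capg at chr6:72549397-72549646, Arpc5 at chr1:152766292-152766541 and Dstn at chr2:143915081-143915330. Capitals mark GC boxes (GGGCGG or its reverse complement CCGCCC) and the CCAAT box (CCAAT or its reverse complement ATTGG), searched on both strands.
Capg: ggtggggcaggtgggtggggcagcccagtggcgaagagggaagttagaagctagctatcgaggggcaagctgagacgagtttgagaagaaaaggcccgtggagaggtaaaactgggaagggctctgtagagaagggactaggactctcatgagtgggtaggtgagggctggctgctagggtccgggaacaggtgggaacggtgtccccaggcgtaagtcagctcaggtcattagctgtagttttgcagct
Arpc5: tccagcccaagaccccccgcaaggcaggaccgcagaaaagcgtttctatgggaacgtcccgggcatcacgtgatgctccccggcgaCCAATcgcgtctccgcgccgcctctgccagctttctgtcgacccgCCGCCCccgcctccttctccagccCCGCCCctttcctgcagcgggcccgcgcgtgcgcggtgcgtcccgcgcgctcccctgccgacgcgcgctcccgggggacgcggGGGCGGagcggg
Dstn: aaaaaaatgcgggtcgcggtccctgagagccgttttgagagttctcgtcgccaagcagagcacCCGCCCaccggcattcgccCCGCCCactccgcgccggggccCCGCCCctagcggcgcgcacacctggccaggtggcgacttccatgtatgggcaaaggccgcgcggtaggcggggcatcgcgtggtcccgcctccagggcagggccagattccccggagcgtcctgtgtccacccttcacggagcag
The Capg window held 0 GC boxes and 0 CCAAT boxes at 57.6% G and C, the Arpc5 window 3 GC boxes and 1 CCAAT box at 74.4%, and the Dstn window 3 GC boxes at 69.6%. Among 40 windows of 36 members in the table, a GC box was in 67.5%, against 32.7% of 32851 windows of all genes. A CCAAT box was in 30% of member windows against 33.9%, and TATAAA in 2.5% against 12.4%. The CArG box, the serum response factor motif found upstream of many actin genes, was in 7.5% of member windows (Actg1, Arpc4 and Vil1) against 1.47% of all windows. Of these members, Actg1 had no probe set of its own and Vil1 did not pass the filter on low values. The windows of all genes include genes that were not tested here, so the shares do not set the members beside expressed genes. The motif counts are matches of letters and say nothing of binding in this tissue.

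The other capping and severing proteins showed no call. Capza1 and Capza2 encode the alpha subunits and Capzb the beta subunit of capping protein, the main barbed-end capper of most cells. Capzb averaged 8.18 ± 0.0596 in null, 8.22 ± 0.0377 in heterozygous and 8.18 ± 0.0719 in wild-type arrays (SD, n = 5 each), a null minus wild-type difference of 0.002 with an interval of -0.11 to 0.11. Capza1 and Capza2 differed by -0.098 each (limma adjusted p = 0.312 and 0.379), and both probe sets of Capza1 gave similar values (-0.098 and -0.088). Gelsolin (Gsn), which severs filaments and caps them in response to calcium, read 9.42, 9.26, 9.21, 9.16 and 8.86 in null, 9.08, 9.11, 8.89, 9.12 and 9.08 in heterozygous and 9.11, 9.10, 8.91, 9.08 and 9.10 in wild-type arrays. In 4 of 5 null arrays Gsn exceeded every wild-type array and null array 5 was below them all, and the difference of 0.12 had an adjusted p of 0.400 in limma. It was 0.20 without null array 5 (adjusted p = 0.0759) and 0.062 without null array 1 (adjusted p = 0.725). Vil1 (villin, a microvillus protein) and Eps8 (which caps and bundles filaments) did not pass the filter. Vil1 averaged 3.48 ± 0.0850 in null, 3.67 ± 0.164 in heterozygous and 3.56 ± 0.117 in wild-type arrays (SD, n = 5 each), and Eps8 5.09 ± 0.126, 5.14 ± 0.370 and 5.14 ± 0.133 in the same order. Heterozygous array 1, with the high neuron markers, had the highest Eps8 value at 5.74.

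**Figure D3:**
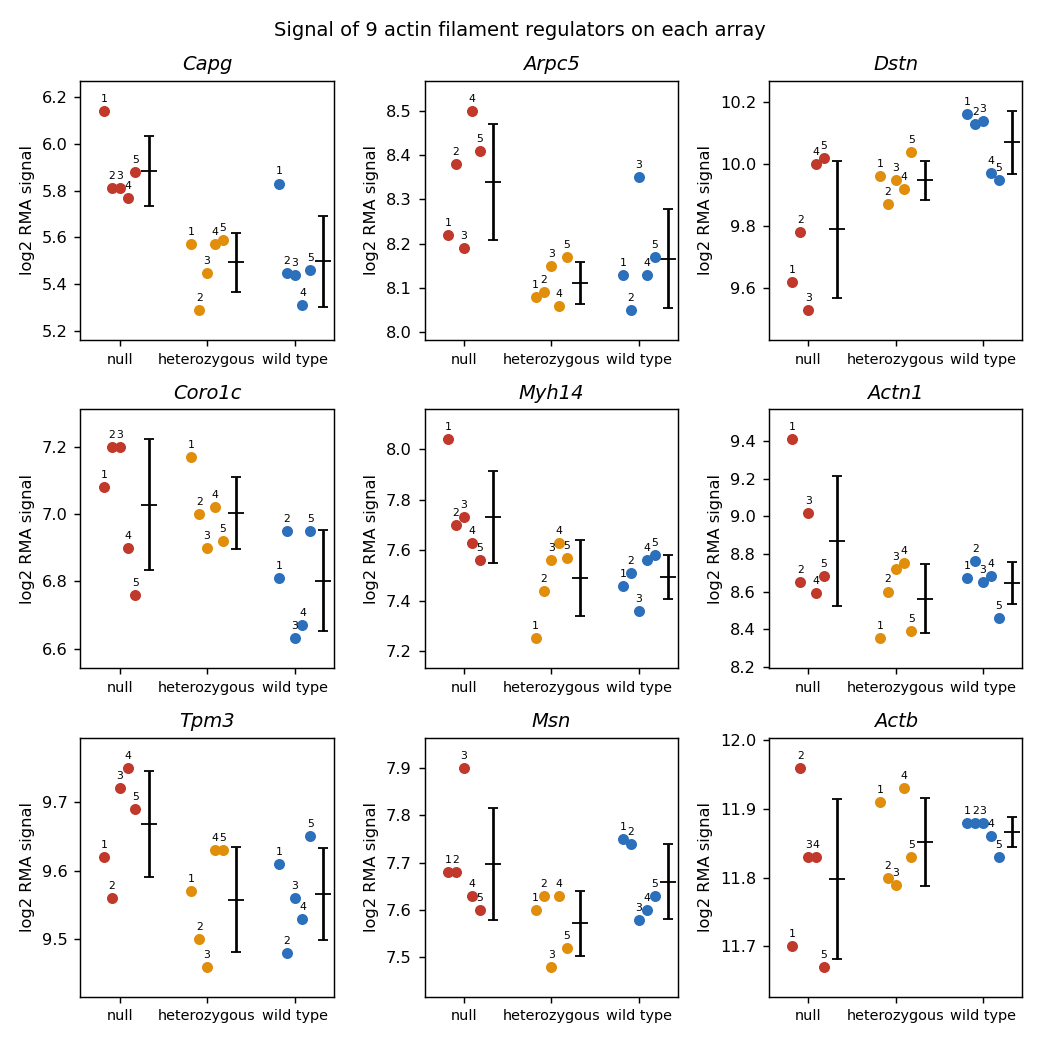
Log2 signal in each of the 15 arrays (points, labelled with the replicate number) with the mean and SD of each genotype (bars, n = 5), in a panel for each of 9 members, null arrays on the left; the axes do not start at 0. All 5 null points of Capg lie above all 5 heterozygous points.

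Arpc5 encodes the smallest subunit of the Arp2/3 complex, the machine that nucleates branched filaments. It read 8.22, 8.38, 8.19, 8.50 and 8.41 in null arrays, 8.08, 8.09, 8.15, 8.06 and 8.17 in heterozygous arrays, and 8.13, 8.05, 8.35, 8.13 and 8.17 in wild-type arrays. Every null array exceeded every heterozygous array, and wild-type array 3 lay among the null arrays. The null mean was 0.23 above heterozygous (SE 0.0681, interval 0.087 to 0.37, limma adjusted p = 0.0469) and 0.17 above wild type (adjusted p = 0.126). The call against heterozygous was kept in 3 of the 15 fits that leave out 1 array (without null array 2, null array 3 or wild-type array 3). Over the 15 fits the difference was 0.19 to 0.27 and the adjusted p 0.0378 to 0.0982. Without null arrays 1 and 5 the difference was 0.25 (adjusted p = 0.0929). The meaning of the number before the dot in each sample's description is not given. With that number as a covariate, the null mean was 0.14 above heterozygous (adjusted p = 0.492) and 0.078 above wild type (adjusted p = 0.736). The numbers of null mice ran higher than those of the other genotypes, with some overlap. This fit therefore cannot separate the number from genotype.

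The remaining Arp2/3 subunits were not called in any comparison. Arpc1a, an alternative propeller-shaped subunit, differed by -0.17 between null and wild type (adjusted p = 0.128 in limma) and its partner isoform Arpc1b by 0.16 (adjusted p = 0.232), with a further probe set of Arpc1b at 0.14. Arpc2 differed by -0.13, Arpc4 by -0.026 and Actr3, an actin-related core subunit, by -0.068. Arpc3 and Actr2 had no probe set with their symbol alone and are not reported. The measured subunits thus gave differences of both signs.

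Actin-depolymerizing factor (Dstn) and the cofilins bind filaments and speed their disassembly. Dstn read 9.62, 9.78, 9.53, 10 and 10.02 in null arrays, 9.96, 9.87, 9.95, 9.92 and 10.04 in heterozygous arrays, and 10.16, 10.13, 10.14, 9.97 and 9.95 in wild-type arrays. Null arrays 1, 2 and 3 lay below every wild-type array, and null arrays 4 and 5 did not. The difference of -0.28 (SE 0.0863, interval -0.46 to -0.10) had a limma adjusted p of 0.0553 and was not called. It passed without null array 4 (-0.33, adjusted p = 0.0273) or null array 5 (-0.34, adjusted p = 0.0209). It did not pass without null array 1 (-0.24, adjusted p = 0.1485) or without both null arrays 1 and 5 (-0.30, adjusted p = 0.0744). Cfl1, the cofilin of nonmuscle cells, differed by -0.11 (adjusted p = 0.405), and Cfl2, the muscle isoform, by -0.02 (adjusted p = 0.885). The profilins, which feed actin monomers to growing barbed ends, differed by -0.042 (Pfn1) and -0.096 (Pfn2), neither called.

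Actb, cytoplasmic beta-actin, read 11.70, 11.96, 11.83, 11.83 and 11.67 in null arrays, 11.91, 11.80, 11.79, 11.93 and 11.83 in heterozygous arrays, and 11.88, 11.88, 11.88, 11.86 and 11.83 in wild-type arrays. The genotypes overlapped, and the null minus wild-type difference was -0.068 with an interval of -0.19 to 0.054 (limma adjusted p = 0.510). Actg1, cytoplasmic gamma-actin, had no probe set of its own: 4 sets listed Actb and Actg1 together and were not tested. Their means were 11.59, 11.41, 11.06 and 11.04 in null arrays, 11.69, 11.51, 11.12 and 11.11 in heterozygous arrays and 11.71, 11.49, 11.16 and 11.14 in wild-type arrays, with null SDs of 0.19 to 0.23 against wild-type SDs of 0.051 to 0.084.

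Among the regulators of filament ends and branches, coronin 1C (Coro1c), a filament-binding protein, was the member with the lowest p between null and wild type. It read 7.08, 7.20, 7.20, 6.90 and 6.76 in null arrays, 7.17, 7.0, 6.90, 7.02 and 6.92 in heterozygous arrays, and 6.81, 6.95, 6.63, 6.67 and 6.95 in wild-type arrays. Null arrays 4 and 5 lay within the wild-type range and the other null arrays above it. The difference was 0.23 (adjusted p = 0.136 in limma) and passed only without null array 5 (0.29, adjusted p = 0.0432). Vasp and Enah, Ena/VASP proteins that promote elongation at barbed ends, had means of 6.63 and 7.84 in null, 6.74 and 7.74 in heterozygous and 6.56 and 7.86 in wild-type arrays. Neither was called in any comparison. Diaph1, a formin, differed by 0.042 and Cttn (cortactin), which stabilizes branches, by 0.028 between null and wild type.

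Tropomyosins wind along filaments and set which proteins can bind. Tpm3 read 9.62, 9.56, 9.72, 9.75 and 9.69 in null arrays, 9.57, 9.50, 9.46, 9.63 and 9.63 in heterozygous arrays, and 9.61, 9.48, 9.56, 9.53 and 9.65 in wild-type arrays. Null arrays 3, 4 and 5 exceeded all wild-type arrays and the other 2 overlapped them, with a difference of 0.10 (limma adjusted p = 0.285). Its 3 further probe sets gave -0.002, 0.042 and -0.054. Their null means were 6.61, 6.44 and 6.21, against 9.67 for the set shown, so the level of Tpm3 given here rests on 1 set. Tpm1 and Tpm4 differed by -0.014 and -0.034, and Tpm2, mainly a muscle tropomyosin, was below the filter, with means of 4.24 in null, 4.16 in heterozygous and 4.15 in wild-type arrays.

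Alpha-actinin 1 (Actn1) crosslinks filaments into bundles and anchors them at adhesions. It read 9.41, 8.65, 9.02, 8.59 and 8.68 in null arrays, 8.35, 8.60, 8.72, 8.75 and 8.39 in heterozygous arrays, and 8.67, 8.76, 8.65, 8.68 and 8.46 in wild-type arrays. Null arrays 1 and 3 were above every other array and the other 3 null arrays were within the wild-type range. The difference was 0.23 (limma adjusted p = 0.306) and 0.09 without null array 1. Actn4, the second nonmuscle alpha-actinin, differed by 0.068 and filamin A (Flna), a crosslinker that also ties filaments to the membrane, by 0.078. The value of Flna in null array 5 was 8.40, and the other null arrays spanned 8.93 to 9.01, and the difference without null arrays 1 and 5 was 0.20 (adjusted p = 0.0970).

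Nonmuscle myosin II pulls filaments against each other, and Myh9, Myh10 and Myh14 encode its heavy chains. Myh14 read 8.04, 7.70, 7.73, 7.63 and 7.56 in null arrays, 7.25, 7.44, 7.56, 7.63 and 7.57 in heterozygous arrays, and 7.46, 7.51, 7.36, 7.56 and 7.58 in wild-type arrays. In 4 of 5 null arrays Myh14 exceeded every wild-type array. The differences from wild type were 0.24 for Myh14 (limma adjusted p = 0.104), 0.16 for Myh10 (adjusted p = 0.160) and 0.16 for Myh9 (adjusted p = 0.247). The means of the 3 heavy chains were thus all higher in null arrays and no member was called. Null array 1, the highest in Myh14, contradicts its sex label. The Myh14 difference was 0.16 without it (adjusted p = 0.263) and 0.19 without null arrays 1 and 5 (adjusted p = 0.203). A second Myh9 probe set, at 5.54 to 5.77 in null and 5.24 to 5.56 in wild-type arrays, had a difference of 0.24 (adjusted p = 0.0441 when every probe set was tested on its own).

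Ezrin (Ezr), moesin (Msn) and radixin (Rdx) link filaments to the plasma membrane, with ezrin prominent in microvilli. Msn read 7.68, 7.68, 7.90, 7.63 and 7.60 in null arrays, 7.60, 7.63, 7.48, 7.63 and 7.52 in heterozygous arrays, and 7.75, 7.74, 7.58, 7.60 and 7.63 in wild-type arrays. The genotypes overlapped, with a null minus wild-type difference of 0.038 (limma adjusted p = 0.760). Ezr averaged 10.84 ± 0.0820 in null, 10.79 ± 0.0752 in heterozygous and 10.84 ± 0.0680 in wild-type arrays (SD, n = 5 each), with an interval of the null minus wild-type difference of -0.12 to 0.12. Rdx differed by 0.022.

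**Figure D4:**
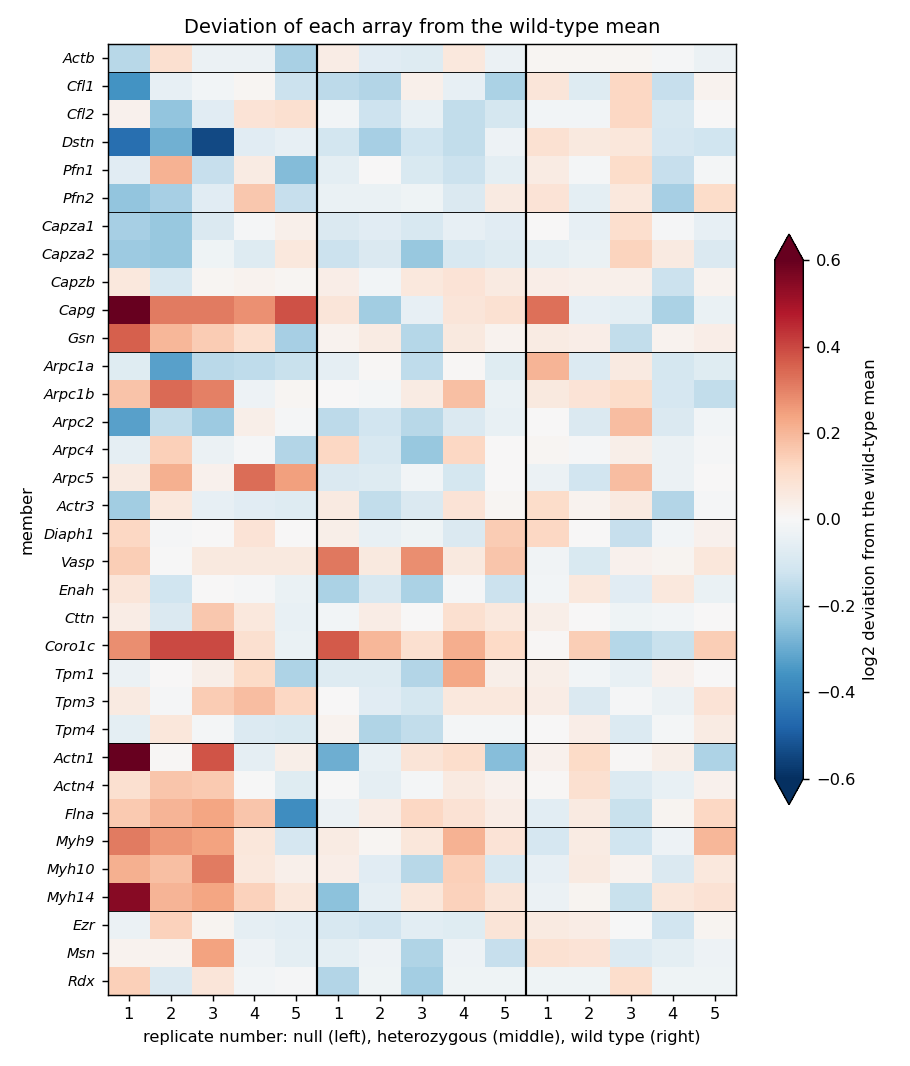
Deviation of each array from the wild-type mean of the member (log2, color), for the 34 tested members down the page and the 15 arrays across, null arrays on the left. Null array 1 has 9 members more than 0.25 from the wild-type mean and wild-type arrays have at most 1. The same was not counted over all genes.

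The members did not move by the same amount in each null array. Members more than 0.25 from their wild-type mean numbered 9, 6, 6, 2 and 3 in null arrays 1 to 5, against 3, 0, 1, 0 and 1 in heterozygous arrays and 1, 0, 0, 0 and 0 in wild-type arrays. The wild-type mean was computed from the wild-type arrays themselves, which makes their own deviations smaller. The same count was not made over all genes. Over all genes the median SD was also larger in null (0.138) than in wild-type arrays (0.0945), so the counts cannot be read as particular to the members.

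Other actin genes were counted from lists of related pathways, 81 tested genes that are not among the members. In null against wild type 0 of 81 passed the adjusted threshold in limma, against 7.73% of all genes, and 15 passed an unadjusted p under 0.05 (18.5%, against 24.0%). In heterozygous against wild type the counts were 0, against 0% of all genes, and 2 (2.47%, against 3.78%). In null against heterozygous 4 passed (4.94%, against 7.93% of all genes). Limk2, a kinase that inhibits cofilin, was lower by 0.29 (7.59 ± 0.0903 in null and 7.88 ± 0.0856 in heterozygous arrays, adjusted p = 0.00765), and its arrays did not overlap. Daam1, a formin, was higher by 0.35 (adjusted p = 0.0408), Marcksl1, a membrane-bound filament bundler, by 0.39 (adjusted p = 0.0423) and Mrtfb, a coactivator of serum response factor that actin monomers bind, by 0.29 (adjusted p = 0.0403). Against wild type Limk2 differed by -0.16 (adjusted p = 0.0944), Daam1 by 0.28, Marcksl1 by 0.20 and Mrtfb by 0.17. Without null arrays 1 and 5 the null minus heterozygous difference was -0.23 for Limk2 (adjusted p = 0.0508), 0.22 for Daam1 (adjusted p = 0.243), 0.39 for Marcksl1 (adjusted p = 0.0953) and 0.25 for Mrtfb (adjusted p = 0.149), none called. With heterozygous array 1 left out, the call of Limk2 held (adjusted p = 0.0211), and those of Daam1 (0.27, adjusted p = 0.0931), Marcksl1 (0.41, adjusted p = 0.0590) and Mrtfb (0.25, adjusted p = 0.0931) were lost.

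By list, among the 16 tested WASP and WAVE activators of the Arp2/3 complex 0 passed in any comparison, as for the 12 tested monomer and turnover proteins and the 9 tested myosin light chains and smooth muscle type filament proteins. Over all genes 7.73% passed in null against wild type, 0% in heterozygous against wild type and 7.93% in null against heterozygous, so lists this short would hold few calls at the share of all genes. The median null minus wild-type differences of these lists were 0.059, -0.002 and 0.056, beside 0.012 over all genes. Among the 11 tested genes of serum response factor, its coactivators and targets, which include the members Actb and Tpm1, the median was 0.11 and 0 passed against wild type.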

How the data were processed

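RNA of 15 choroid plexus samples, 5 per genotype, was hybridised to single-colour Affymetrix arrays. The deposited table holds log2 values made by the authors with Affymetrix Expression Console 1.1 and RMA, per the submitters' processing notes; the log base was read from the values (1.57 to 13.89), and the genome build was not stated in what was used here. RMA corrects background and equalises the arrays' distributions, so it removes total-signal differences. Probe sets with 1 symbol in the platform annotation (21789 of 35556) were used, with symbols updated through Entrez identifiers in the RefSeq table of GRCm38.p6 (21698 matched).

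Genes with a value over 5.33 in at least 5 arrays were tested with limma 3.58.1 (lmFit and eBayes, R 4.3.3) on all 15 arrays, 12 residual degrees of freedom, no covariate, and Benjamini-Hochberg adjustment over 10069 genes; adjusted p under 0.05 was called. The procedure was tested on simulated data. Per-array values are given for members called in any comparison and, in each of 9 role groups, for the members with the smallest p and the largest difference in null against wild type; other pathway genes are named where called. Gsn was shown per array after its values were seen. The members and lists were chosen with earlier results of these data known. Replicate numbers in the titles did not pair the samples. Alternatives were other filters, probe set rules, scalings, variance models, covariates and leaving out each array. No array was identical to another among 105 pairs. The number of arrays limits the precision.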

Additional observations from a re-analysis of the deposited data

Results flagged for a closer look

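In 8 of 102 groups of 5 arrays, 1 array lay far from the others. Its gap to the nearest neighbour made up more than Dixon's critical share of the group's range. Chance gives about 1 in 20 such groups where values are normally distributed. The same count was not made over all genes, so it cannot be read as particular to the members. Among null arrays, the flagged groups were Flna, with null array 5 at 8.40 (0.869 of the range), and Msn, with null array 3 at 7.90 (0.733). Among heterozygous arrays they were Gsn, with array 3 at 8.89 (0.826), and Ezr, with array 5 at 10.92 (0.737). Among wild-type arrays they were Capzb, with array 4 at 8.05 (0.882), Capg, with array 1 at 5.83 (0.712), Gsn, with array 3 at 8.91 (0.850), and Rdx, with array 3 at 9.32 (1.0) where the other 4 all read 9.19. The Capg value lay inside the null range, and without wild-type array 1 Capg was still called. No cause was tested.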

How the results depend on the processing

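Of 34 members, the count called in null against wild type (1, Capg) was 2 with an intensity trend and robust variances, 2 with array weights, 2 with every probe set tested on its own, and 0 with the label number as a covariate, without null arrays 1 and 5, or with Xist as a covariate; leaving out 1 array gave 0 to 3, with 0 without null array 1, 2 without null array 4 and 3 without null array 5. In null against heterozygous the count (2) was 3 with array weights, where Myh10 passed as well (adjusted p = 0.0460 in limma), 1 with no filter, a stricter filter, requantiling, median centring, a fit to the genotypes compared, or the label number as a covariate, and 0 without null arrays 1 and 5 or with Xist as a covariate; leaving out 1 array gave 0 to 2, with 0 without null array 1 or heterozygous array 2. The heterozygous against wild-type count was 0 under all 29 alternatives, and no call reversed direction. Capg could not be tested under the stricter filter, where Dstn passed (-0.28, adjusted p = 0.0415 in limma). The label number is the part before the dot in each sample's description, whose meaning is not given. It ran higher in null mice than in the other genotypes, with some overlap. As a random block it left both calls of Capg in place. The consensus correlation of arrays with the same number was only 0.033. The random-block fit was therefore close to the main fit and is little check on the number. With the number as a covariate Capg differed by 0.45 from wild type (adjusted p = 0.0980) and Actn1 passed against heterozygous (0.64, adjusted p = 0.0426). The covariate fit cannot separate the number from genotype, so its lost and gained calls cannot be assigned to either. The only number shared by a null and another mouse was 460. There null array 2 differed from heterozygous array 5 by 0.22 in Capg, 0.21 in Arpc5 and -0.26 in Dstn. This sets 1 array against 1, and the same was not counted over all genes.

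The replicate numbers of the titles did not pair the samples: 4 of 15 same-numbered pairs correlated over 0.1 and 1 of 15 arrays correlated best with its own number. With the replicate block the members called were 1 in null against wild type, 0 in heterozygous against wild type and 1 in null against heterozygous, and the genes called over all 10069 were 518 and 550 in the comparisons of null mice.

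Over all genes the count in null against wild type (778) was 461 with a fit to those genotypes, 1320 with array weights, 257 with the label number as a covariate, 396 without null arrays 1 and 5, 315 with Xist as a covariate and 390 to 1418 when leaving out 1 array. In null against heterozygous (798) the counts under the same settings were 343, 1297, 195, 330, 248 and 356 to 1815, and 500 with no filter. The Add1 call was lost in 8 of 29 alternatives, among them without null arrays 1 and 5 (adjusted p = 0.101). With 5 arrays a genotype, the 95% interval of a member's difference was 0.285 wide in the median and 0.548 at the widest.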

Other observations

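The spread within a genotype was wider among null mice, in these genes and over all genes tested. The SD over 5 null arrays exceeded the SD over 5 wild-type arrays in 28 of 34 members (82.4%), against 73.5% of all genes tested. The median SD was 0.117 in null, 0.0753 in heterozygous and 0.0864 in wild-type arrays for the members, and 0.138, 0.101 and 0.0945 for all genes. With null arrays 1 and 5 left out, the SD of the remaining 3 exceeded the wild-type SD in 23 of 34 members (67.6%), against 62.8% of all genes. That check sets an SD over 3 arrays against an SD over 5.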
